A study of Mus musculus with 3 samples.

Results

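Wnt1, Axin2 and 8 further components of canonical Wnt signalling (Axin1, Ctnnb1, Apc, Lef1, Tcf7, Tcf7l2, Nkd1 and Lgr5) were followed across cells with a control microRNA, a medium level and a high level of the miR-17~92 cluster. The 10 genes were chosen by name with the measured values of these columns known, and Wnt1 and Axin2 for their low level at the high level of the cluster against the medium one. Of the 10 listed genes, 9 had a probe set listed under that gene alone, out of 19938 such genes on the array. An expression filter, a mean of at least 7.13 on the log2 scale over the 3 columns, was passed by 7 of them and by 9969 genes in all. Mean levels just inside and just outside it were 7.20 for Nkd1 and 6.93 for Lef1. Lgr5, at a mean of 6.11, did not pass either. Tcf7 was not matched to a probe set of its own and is not analysed here.

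The cells were CT26, a mouse colon carcinoma line. All groups shared transfection with a vector that confers puromycin resistance and GFP, puromycin selection, sorting of GFP-positive cells and outgrowth of monoclonal lines by serial dilution. The groups were miR-Ctrl (Ctrl), whose vector carried a control microRNA, miR-17~92Med (Med), described as having the cluster at medium levels, and miR-17~92Hi (Hi), described as having it at high levels. Per the design text 3 subclones of each group were used, but each group had 1 column of values, and whether a column is 1 clone, a pool or a mean the sources used here do not say. With 1 column a group there was no replicate error and no test, so "higher" and "lower" describe these 3 columns and nothing beyond them, and a clone's own history and the level of the cluster cannot be told apart.

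In canonical Wnt signalling a secreted Wnt protein binds a Frizzled receptor together with Lrp5 or Lrp6. Without the ligand, a destruction complex built on axin and the adenomatous polyposis coli protein marks beta-catenin for degradation. With it, beta-catenin accumulates, enters the nucleus and acts with TCF/LEF factors on target genes, some of which, such as Axin2, Nkd1 and Notum, restrain the pathway in turn. In the intestine this pathway maintains crypt stem cells, which carry the receptor Lgr5, and loss of APC is a common early event in human colorectal cancer.

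The mature microRNAs of the cluster are shown because the labels set the groups apart by their level. They are given 5′ to 3′ as RefSeq lists them for the mouse, on chromosome 14 (GRCm38.p6, plus strand), with the seed, bases 2 to 8, in capitals.
miR-17-5p: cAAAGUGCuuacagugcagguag
miR-20a-5p: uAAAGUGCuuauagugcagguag
miR-18a-5p: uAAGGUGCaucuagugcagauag
miR-19a-3p: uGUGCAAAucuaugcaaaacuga
miR-19b-3p: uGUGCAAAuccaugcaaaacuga
miR-92a-3p: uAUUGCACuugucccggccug
The 6 microRNAs carry 4 different seeds: miR-17-5p shares its seed with miR-20a-5p, and miR-19a-3p with miR-19b-3p. The array measured messenger RNA, and no target site for these seeds was searched in the Wnt genes.

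The promoters of Wnt1 and Axin2 are shown because these were the members with the largest differences between Hi and Med. Each run is the 250 bases before the RefSeq start (GRCm38.p6, plus strand, 5′ to 3′), chr15:98789607-98789856 for Wnt1 and chr11:108920099-108920348 for Axin2. Capitals mark CTTTG, the core of the element that TCF/LEF factors bind, searched on both strands.
Wnt1: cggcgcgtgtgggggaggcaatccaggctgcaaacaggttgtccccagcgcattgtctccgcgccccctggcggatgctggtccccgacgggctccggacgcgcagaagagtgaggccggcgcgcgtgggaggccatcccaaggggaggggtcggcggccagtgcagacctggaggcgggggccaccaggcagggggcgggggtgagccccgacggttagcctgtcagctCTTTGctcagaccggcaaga
Axin2: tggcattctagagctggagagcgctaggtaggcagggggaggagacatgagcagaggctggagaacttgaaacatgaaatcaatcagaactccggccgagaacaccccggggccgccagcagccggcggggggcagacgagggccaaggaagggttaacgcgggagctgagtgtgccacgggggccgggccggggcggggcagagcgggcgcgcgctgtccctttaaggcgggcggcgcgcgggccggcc
The Wnt1 window held the core once, beginning 20 bases before the start, and the Axin2 window did not hold these letters. Both windows were rich in G and C, at 71.6% for Wnt1 and 69.2% for Axin2. Over all 32851 promoter windows of this table, 48.6% held the core on either strand and 14.8% held a longer form (the core followed by AT, AA, TT or TA). Of the 10 listed genes, 7 had at least 1 window, and of their 13 windows 7 held the core and 2, of Lef1 and Tcf7l2, a longer form.

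The deposited values were taken as log2, a base read from their range and not given by the sources used here. On that reading a difference of 1 between columns is 2-fold. Column medians over all probe sets stood at 6.95 in Ctrl, at 6.65 in Med and at 6.66 in Hi. As a gauge of background, the 95th percentile of 1194 olfactory and vomeronasal receptor genes lay at 6.87 in Ctrl, at 6.18 in Med and at 6.20 in Hi, so background was itself lower in Med and Hi than in Ctrl. Of the genes past the filter, 35.4% had the same value to every deposited digit in Med and Hi but not in Ctrl, and a further 10.5% had it in all 3 columns. The sources used here do not say how these identical values arose. Among markers of colon epithelium, with median levels of 7.26 in Ctrl and 6.26 in both Med and Hi, 5 of 15 passed the filter. The keratin Krt18 was at 7.97 in Ctrl, at 11.41 in Med and at 12.28 in Hi. Its partner Krt8 (8.92 in Ctrl, 7.28 in Med, 7.32 in Hi), Cdx1 and Cldn3 were lower in Med and Hi than in Ctrl. Krt19 was at 7.50 in both Ctrl and Med and at 7.87 in Hi. Epcam, at 6.15 in Ctrl, 5.14 in Med, 5.14 in Hi, lay below the gauge in every column. Of the mesenchymal markers 8 of 11 passed, with list medians of 8.01 in Ctrl, 6.98 in Med and 6.99 in Hi. In both cluster columns 3 of these 8 were higher than in Ctrl, among them Vim (11.94 in Ctrl, 13.89 in Med, 13.63 in Hi), and 5 were lower, among them Acta2 (9.67 in Ctrl, 6.42 in Med and Hi). Of the blood markers 1 of the 6 measured passed, and of the 5 endothelial markers 0. The part of these marker differences in the results below was not tested.

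Wnt1 encodes the founding Wnt ligand, which in the mouse embryo acts in the midbrain and neural crest. Its probe set (10426637) was at 7.38 in Ctrl, at 9.63 in Med and at 6.14 in Hi. The gene was thus highest in Med and lowest in Hi, where it lay just under the background gauge, while it stood above the gauge in the other columns. The log2 difference was -3.49 for Hi minus Med, 2.25 for Med minus Ctrl and -1.24 for Hi minus Ctrl. With the Hi level raised to the gauge, Wnt1 was at least 10.8-fold lower in Hi than in Med on the deposited scale. Against Ctrl the same step gave 2.27-fold lower in Hi. That value is no lower bound, since the gauge itself was lower in Hi (6.20) than in Ctrl (6.87). Wnt1 was 4.75-fold higher in Med than in Ctrl. As in any bulk RNA, fewer cells with the transcript and less of it per cell cannot be told apart. Its Hi minus Med difference was the 2nd lowest of the 9969 genes past the filter. This is the contrast it was picked for, and its mean of 7.72 passed the filter through the Med level. The rank is given as a description. Scaling the columns otherwise left the Hi minus Med difference between -3.50 and -3.09. Hi minus Ctrl was under 2-fold with columns centred on their medians over all probe sets (-0.95) and with loess scaling (-0.66).

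**Figure D1:**
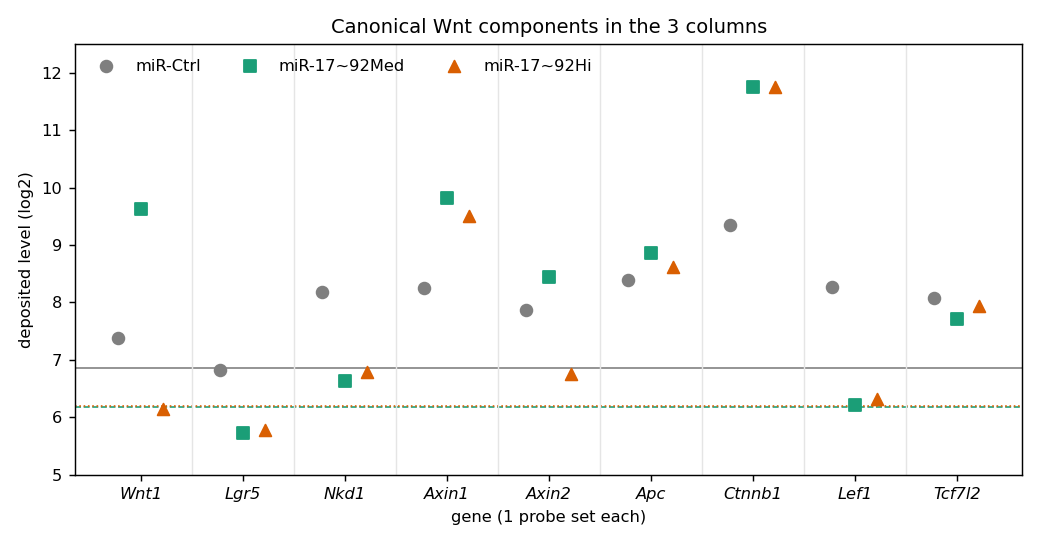
Deposited log2 level (y axis) of the 9 measured genes (x axis, 1 probe set each) in Ctrl (grey circles), Med (green squares) and Hi (orange triangles). Horizontal lines are the background gauge of each column, the 95th percentile of receptor genes (6.87 in Ctrl, 6.18 in Med, 6.20 in Hi). Wnt1 and Axin2 are lowest in Hi and highest in Med, Ctnnb1 is at the same 11.75 in Med and Hi, and Lef1 and Nkd1 are lower in both Med and Hi than in Ctrl.

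Counted together, of the 7 listed genes past the filter 0 were 2-fold higher and 2 lower in Hi relative to Med (all genes past the filter: 0.682% higher and 0.863% lower). In Hi against Ctrl 2 were higher, Axin1 and Ctnnb1, and 3 lower, Wnt1, Axin2 and Nkd1 (33.5% and 8.4% of all genes past the filter). In Med against Ctrl 3 were higher, Wnt1, Axin1 and Ctnnb1, and 1 lower, Nkd1 (34.9% and 8.7%). Outside the filter Lef1 was 2-fold lower in both cluster columns, so that the 8 genes above the gauge in at least 1 column gave 2 higher and 4 lower in Hi against Ctrl (17.5% and 15.4% of all measured genes), 3 and 2 in Med against Ctrl (18.3% and 16.3%) and 0 and 2 in Hi against Med (0.406% and 0.512%). Lgr5, under the gauge throughout, is not counted. Because the genes were chosen with these columns known, nothing is read from their counts against those shares. Both comparisons with Ctrl share that column.

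Of the 8 other Wnt ligands past the filter, 1, Wnt7b, was 2-fold lower in Hi than in Med and 0 were higher. All genes past the filter were at 0.863% lower and 0.682% higher. Nothing is read from this count, since the lists were chosen with earlier results of these data known. Of the 19 ligand genes measured, 9 passed the filter, and 17 lay above the gauge in Ctrl, 13 of them in Med and 12 of them in Hi. Wnt7b was at 7.52 in Ctrl, at 9.29 in Med and at 8.24 in Hi. Like Wnt1 it was highest in Med, but unlike Wnt1 it was higher in Hi than in Ctrl. Its Hi minus Med difference was -1.05, and was under 2-fold with quantile normalization (-0.89) and with columns centred on the genes past the filter (-0.996). Med minus Ctrl was 1.78 for Wnt7b. On the deposited scale 0 ligands past the filter were 2-fold higher in Hi than in Ctrl and 3 of 9 were lower, beside 33.5% and 8.4% of all genes past the filter: Wnt1, Wnt3a (7.98 in Ctrl, 6.74 in Med, 6.84 in Hi) and Wnt9a (8.88 in Ctrl, 7.49 in Med and Hi). With columns centred over all probe sets Wnt7b was 2-fold higher in Hi than in Ctrl (1.01) and Wnt3a was no longer 2-fold lower (-0.85), nor was Wnt3a with loess (-0.83), while centring on the genes past the filter put 7 of the 9 ligands 2-fold lower. Wnt11 (7.71 in Ctrl, 6.31 in Med, 6.31 in Hi), Wnt3 (7.26 in Ctrl, 5.91 in Med, 6.01 in Hi) and Wnt7a (7.13 in Ctrl, 5.84 in Med, 5.81 in Hi) did not pass the filter, and Wnt3 and Wnt7a were not above the gauge in Med or Hi. Wnt10b, the ligand gene that lies next to Wnt1, was at 7.51 in Ctrl and 6.77 in both Med and Hi. Ddn, the neighbour on the other side, was at 6.54 in Ctrl and 5.64 in both. Wnt10b, outside the filter and with one value in Med and Hi, was not highest in Med. Ddn lay under the gauge in every column, so a difference could not be measured for it.

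Among the 5 genes of Wnt secretion, all past the filter, 2 were 2-fold higher and 0 lower in Hi relative to Ctrl, and 3 higher and 1 lower in Med relative to Ctrl, beside 33.5% and 8.4%, and 34.9% and 8.7%, of all genes past the filter. Vps35, a retromer subunit that returns the Wnt carrier from endosomes, was at 7.45 in Ctrl, at 10.43 in Med and at 10.38 in Hi. Wls, that carrier, was at 8.43 in Ctrl, at 9.63 in Med and at 9.53 in Hi. Vps35 stayed 2-fold higher in both under the scalings tried, whereas Wls was under 2-fold with quantile normalization, loess and centring on the genes past the filter (0.41 to 0.56 for Hi and 0.46 to 0.60 for Med). Porcn, which adds the lipid that Wnt proteins need for secretion, was lower in both, at 8.97 in Ctrl, at 7.75 in Med and at 8.11 in Hi. Tmed5, a cargo receptor of the early secretory route, was at 7.46 in Ctrl, at 8.80 in Med and at 7.96 in Hi, and with -0.84 it had the lowest Hi minus Med difference of these 5.

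Receptors showed no 2-fold difference between Hi and Med among the 11 of 16 that passed the filter. Such differences were rare over all genes past the filter, at 0.682% higher and 0.863% lower, so nothing is read from this count. Of these 11 receptors, 5 had the same value in Med and Hi, which holds no information on a difference between them. Fzd6, a Frizzled receptor, was at 7.50 in Ctrl, at 9.05 in Med and at 9.72 in Hi, a Hi minus Ctrl difference of 2.22. Ryk, an atypical Wnt receptor, was at 8.90 in Ctrl, at 10.63 in Med and at 10.35 in Hi. The co-receptor Lrp5 was at 8.99 in Ctrl, at 9.98 in Med and at 10.09 in Hi, and these 3 of 11 were the receptors 2-fold higher in Hi than in Ctrl on the deposited scale. Fzd6 stayed so under each scaling tried, whereas Lrp5 was under 2-fold with quantile normalization (0.17), loess (0.36) and centring on the genes past the filter (0.56), and so was Ryk (0.52, 0.69 and 0.91). In Med against Ctrl, 2 receptors were higher. In each of those comparisons 3 receptors past the filter were lower, beside 33.5% higher and 8.4% lower of all genes past the filter in Hi and 34.9% and 8.7% in Med. Of the receptors outside the filter, Ror1 was at 7.47 in Ctrl, at 5.72 in Med and at 5.97 in Hi, Fzd10 at 7.93 in Ctrl, 6.30 in Med, 6.55 in Hi, and Fzd3, at 6.81 in Ctrl, 5.11 in Med, 5.11 in Hi, was not above the gauge in any column.

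Lgr5, the R-spondin receptor that marks crypt stem cells, was at 6.82 in Ctrl, at 5.73 in Med and at 5.77 in Hi (probe set 10372503). All 3 values lay under the gauge of their column, so no fold is given and a difference could not be measured. Its paralog Lgr4 was at 6.24 in Ctrl, under the gauge, and at 8.03 in Med and Hi, above it, and was at least 1.16 higher on the log2 scale in either than in Ctrl. Lgr6 was at 7.89 in Ctrl and 8.11 in Med and Hi. The ligand Rspo1 was at 7.95 in Ctrl and 6.38 in both, and Rspo3, at 6.74 in Ctrl and 5.70 in both others, was below the gauge throughout. Of these 9 measured genes (the Lgr receptors, R-spondins and the ligases Rnf43 and Znrf3) 3 passed the filter. All 3 had the same value in Med and Hi, beside 45.9% of all genes past the filter.

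Nkd1, a Dishevelled-binding inhibitor and reported Wnt target, was at 8.18 in Ctrl, at 6.64 in Med and at 6.79 in Hi (probe set 10573779). Both cluster columns were lower than Ctrl and close to each other. Nkd1 was 2.62-fold lower in Hi than in Ctrl and 2.90-fold lower in Med than in Ctrl, and the Hi minus Med difference was 0.15. Its paralog Nkd2, at 6.48 in Ctrl, 5.39 in Med, 5.40 in Hi, was under the gauge in every column. Of the Dact genes, which encode further Dishevelled-binding proteins, Dact3 was at 9.05 in Ctrl, at 7.76 in Med and at 7.80 in Hi, and Dact2 at 7.87 in Ctrl, 6.65 in Med, 6.68 in Hi. Dact1, at 6.84 in Ctrl, 5.62 in Med, 5.57 in Hi, was under the gauge. Dvl1, Dvl2 and Dvl3, the Dishevelled genes themselves, had one value each in all 3 columns (8.93, 8.65 and 9.58).

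Axin2 encodes the inducible axin of the destruction complex and is widely used as a readout of beta-catenin activity. Its probe set (10382228) was at 7.87 in Ctrl, at 8.44 in Med and at 6.75 in Hi. It was highest in Med and lowest in Hi, and stood above the gauge in all 3 columns. Axin2 was 3.22-fold lower in Hi than in Med (log2 difference -1.69), the 13th lowest of the genes past the filter. It was picked for that contrast, so the rank is given as a description. Axin2 was 2.16-fold lower in Hi than in Ctrl (-1.11). Hi minus Med ranged from -1.70 to -1.45 under the scalings tried, while Hi minus Ctrl was under 2-fold with columns centred over all probe sets (-0.83) and with loess (-0.73). Med minus Ctrl was 0.57 as deposited and -0.02 with columns centred on the genes past the filter, so its sign depended on the scaling. The genes next to Axin2 in the RefSeq order were not measured. The nearest measured ones, Cep112 (6.88 in Ctrl, 7.46 in Med, 7.45 in Hi) and Rgs9 (7.16 in Ctrl, 6.37 in Med and Hi), had Hi levels close to or equal to Med.

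Axin1, the constitutive axin, did not follow Axin2. It was at 8.25 in Ctrl, at 9.82 in Med and at 9.50 in Hi (probe set 10442954). Both cluster columns were higher than Ctrl, by 2.37-fold in Hi and 2.95-fold in Med, and the Hi minus Med difference was -0.32. Both differences from Ctrl were under 2-fold with quantile normalization, loess and columns centred on the genes past the filter, at 0.61 to 0.71 for Hi and 0.86 to 0.97 for Med. Apc, the scaffold of the complex, was at 8.40 in Ctrl, at 8.86 in Med and at 8.61 in Hi (probe set 10454655). No comparison of Apc reached 2-fold, and the sign of its differences from Ctrl (0.21 for Hi and 0.46 for Med) turned to -0.37 and -0.20 with quantile normalization, to -0.15 and -0.003 with loess and to -0.33 and -0.14 with columns centred on the genes past the filter.

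The destruction complex and the proteins that turn over beta-catenin had 16 measured genes, 15 past the filter. In Hi against Ctrl 4 were 2-fold higher and 1, Axin2, lower, and in Med against Ctrl 5 were higher and 0 lower, beside 33.5% and 8.4%, and 34.9% and 8.7%, of all genes past the filter. Over the scalings tried the higher genes numbered 2 to 6 in either comparison, and Tnks2 and Gsk3a were among them each time. Tnks2, a tankyrase that promotes the breakdown of axin, was at 7.90 in Ctrl, at 10.71 in Med and at 10.86 in Hi. The kinase gene Gsk3a was at 8.32 in Ctrl and 10.29 in Med and Hi, whereas Gsk3b was at 9.16 in every column. Btrc, which encodes the F-box protein that recognises phosphorylated beta-catenin, was at 7.60 in Ctrl, at 8.93 in Med and at 9.01 in Hi. Siah1b, a ubiquitin ligase gene, was at 7.18 in Ctrl, at 8.47 in Med and at 8.03 in Hi. Axin2, picked for that contrast, was the only gene of these 15 that was 2-fold apart between Hi and Med. All genes past the filter were at 0.682% higher and 0.863% lower.

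Ctnnb1, the gene of beta-catenin, was at 9.35 in Ctrl and 11.75 in both Med and Hi (probe set 10590325). It was 5.28-fold higher in Hi and in Med than in Ctrl. Under other scalings the log2 difference ran from 1.26 to 2.69 for Hi and from 1.22 to 2.70 for Med, against 2.40 as deposited. The Med and Hi values were identical to every deposited digit, so these columns hold no information on a difference between them for Ctnnb1. The level of messenger RNA says nothing of how much beta-catenin protein was stable.

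Lef1 and Tcf7l2, both DNA-binding partners of beta-catenin, differed from each other. Lef1 was at 8.26 in Ctrl, at 6.22 in Med and at 6.31 in Hi (probe set 10496091). Both cluster columns were lower than Ctrl and lay just above their gauges of 6.18 and 6.20. Lef1 was 3.87-fold lower in Hi than in Ctrl and 4.12-fold lower in Med than in Ctrl, at -1.95 and -2.04 on the log2 scale, and under every scaling tried it stayed more than 2-fold lower (-2.49 to -1.56 for Hi and -2.64 to -1.61 for Med). Tcf7l2, the TCF gene most studied in the intestine, was at 8.08 in Ctrl, at 7.71 in Med and at 7.95 in Hi (probe set 10464084). No comparison of Tcf7l2 reached 2-fold, and its Hi minus Ctrl difference of -0.13 turned to 0.15 with columns centred over all probe sets. Its paralog Tcf7l1 was at 8.60 in Ctrl, at 8.33 in Med and at 8.39 in Hi.

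Of the 17 measured genes for beta-catenin, TCF/LEF factors and their cofactors, 14 passed the filter. In either cluster column against Ctrl 3 were 2-fold higher, Ctnnb1, Tle5 and Ctbp1, and 0 lower, beside 33.5% and 8.4% of all genes past the filter in Hi and 34.9% and 8.7% in Med. The corepressor gene Ctbp1, with a difference of 1.15 in either, was under 2-fold with quantile normalization (0.05 in Hi and 0.02 in Med), loess (0.33 and 0.28) and centring on the genes past the filter (0.61 and 0.55). Tle5, a short relative of the Groucho corepressors, was at 8.54 in Ctrl and 10.94 in Med and Hi. Pygo1, a coactivator of beta-catenin, lay outside the filter at 7.87 in Ctrl, at 6.00 in Med and at 6.16 in Hi, and was not above the gauge in the last 2 columns. None of the 14 was 2-fold apart between Hi and Med, and 11 of the 14 had one value in both. Nothing is read from that, as only 0.682% of all genes past the filter were higher there and 0.863% lower.

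Among secreted and membrane-bound inhibitors, Apcdd1, which binds Wnt proteins and Lrp5 at the membrane, was at 8.18 in Ctrl, at 9.23 in Med and at 7.95 in Hi. Like Wnt1 and Axin2 it was highest in Med and lowest in Hi. Its differences were -1.28 for Hi minus Med, 1.06 for Med minus Ctrl and -0.23 for Hi minus Ctrl, the last of which turned to 0.06 with columns centred over all probe sets. Med minus Ctrl was under 2-fold with quantile normalization (0.44), loess (0.56) and centring on the genes past the filter (0.46). Notum, an enzyme that removes the lipid of Wnt proteins and a reported Wnt target, ran the other way, at 7.60 in Ctrl, at 7.63 in Med and at 8.48 in Hi, a Hi minus Med difference of 0.85. Of the 17 measured inhibitors 6 passed the filter, of which 0 were 2-fold higher and 3 lower in Hi relative to Ctrl, and 1 higher and 3 lower in Med relative to Ctrl, beside 33.5% and 8.4%, and 34.9% and 8.7%, of all genes past the filter. With columns centred over all probe sets Notum was 2-fold higher in Hi than in Ctrl (1.17). Sost was at 8.44 in Ctrl, at 6.94 in Med and at 6.91 in Hi, and Kremen2 at 8.27 in Ctrl and 6.94 in both. Dkk1 was at 7.55 in Ctrl, at 6.35 in Med and at 6.53 in Hi, outside the filter. Wif1 and Sfrp5 were above the gauge in Ctrl alone, and Sfrp2 and Sfrp4 in no column.

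Of 35 measured genes reported as Wnt targets, 18 passed the filter. Between Hi and Med 0 were 2-fold higher and 2, Axin2 and Apcdd1, lower, beside 0.682% and 0.863% of all genes past the filter. Axin2 was picked for this contrast. In Hi against Ctrl 6 stood higher and 4 lower, and in Med against Ctrl 8 stood higher and 3 lower, so both directions were present, beside 33.5% higher and 8.4% lower, and 34.9% and 8.7%, of all genes past the filter. Under the scalings tried 4 to 9 were higher and 3 to 4 lower in either comparison. Myc was at 8.48 in Ctrl, at 12.21 in Med and at 12.06 in Hi. The adhesion receptor Cd44, under the gauge in Ctrl (6.10), stood at 9.81 in Med and at 9.39 in Hi, which makes it at least 2.94 higher in Med and at least 2.52 higher in Hi on the log2 scale. Jun was at 7.85 in Ctrl, at 11.05 in Med and at 10.25 in Hi, -0.80 for Hi minus Med. Bambi, a decoy receptor of the TGF-beta family, was at 8.78 in Ctrl, at 6.45 in Med and at 6.40 in Hi. Nkd1 and Axin2, both used as general Wnt readouts, had a Med minus Ctrl difference of -1.54 for Nkd1 and of 0.57 for Axin2. Under the other scalings it ran from -2.13 to -1.20 for Nkd1. For Axin2 it was under 2-fold and ran from -0.02 to 0.87, so its sign was not fixed.

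**Figure D2:**
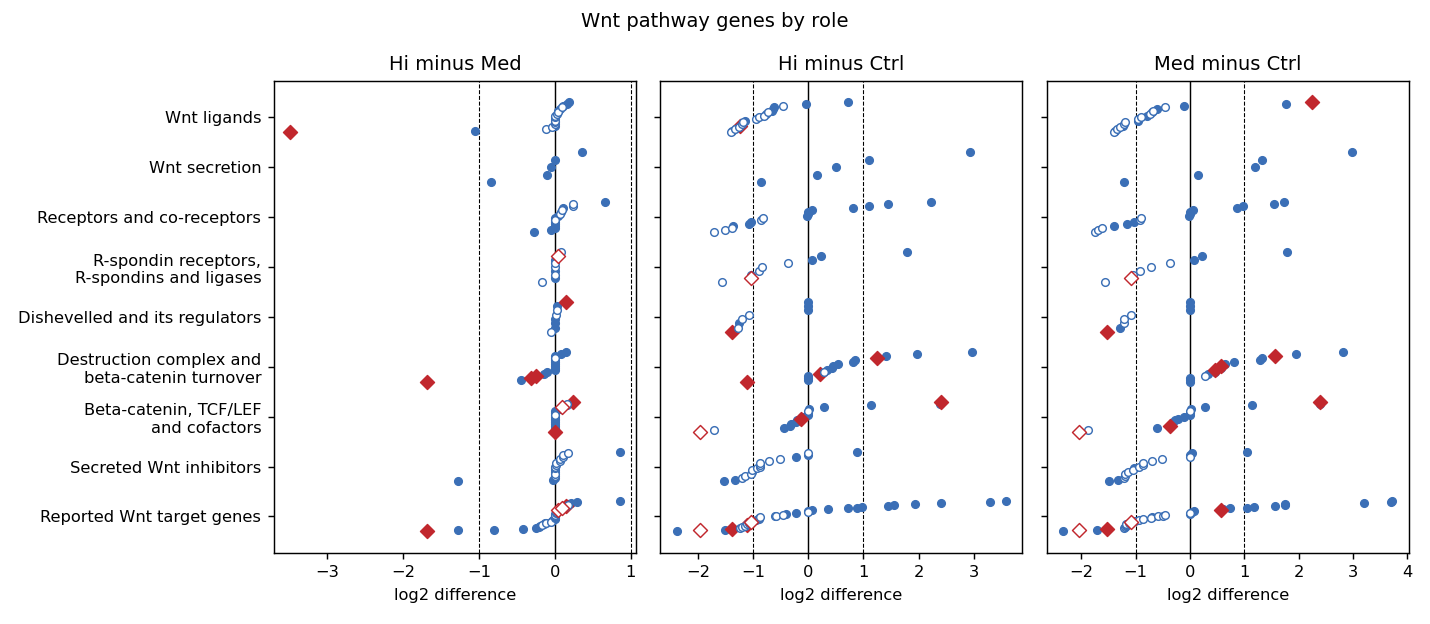
Log2 difference (x axis) of every measured Wnt pathway gene by role (y axis) for Hi minus Med, Hi minus Ctrl and Med minus Ctrl; red diamonds are the listed genes, blue circles other genes, open symbols genes outside the expression filter, and dashed lines 2-fold. Genes in 2 roles, such as Axin2 and Nkd1, appear in both. The row of secreted inhibitors also holds the membrane-bound Apcdd1, Kremen1 and Kremen2. In the Hi minus Med panel the points beyond 2-fold are Wnt1 (-3.49), Axin2 (-1.69), Apcdd1 (-1.28) and Wnt7b (-1.05). Short of 2-fold, Notum (0.85) and Fzd6 (0.66) are among the higher points and Tmed5 (-0.84) and Jun (-0.80) among the lower.

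The median difference of the 7 genes was -0.25 for Hi minus Med, -0.13 for Hi minus Ctrl and 0.57 for Med minus Ctrl, beside 0, 0.39 and 0.42 over all genes past the filter. The scaling moved these medians of the 7 genes to between -0.67 and 0.15 for Hi minus Ctrl and to between -0.02 and 0.87 for Med minus Ctrl, so both changed sign. One of the 7, Ctnnb1, had the same value in Med and Hi, beside 45.9% of all genes past the filter. Of 121 other measured pathway genes, 74 passed the filter, with median differences of 0, 0 and 0.01 as deposited, and from -0.54 to 0.29 for Hi minus Ctrl and from -0.59 to 0.30 for Med minus Ctrl under the other scalings. In Hi against Med 0 of the 74 were 2-fold higher and 2 lower, Apcdd1 and Wnt7b. The shares of all genes past the filter were 0.682% higher and 0.863% lower. In Hi against Ctrl 17 (23.0%) stood higher and 11 (14.9%) lower, beside 33.5% and 8.4% of all genes past the filter, a split that became 24 and 6 with columns centred over all probe sets and 11 and 17 with quantile normalization. In Med against Ctrl 21 (28.4%) stood higher and 12 (16.2%) lower, beside 34.9% and 8.7%, and 25 and 6 or 14 and 20 under those scalings.

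**Figure D3:**
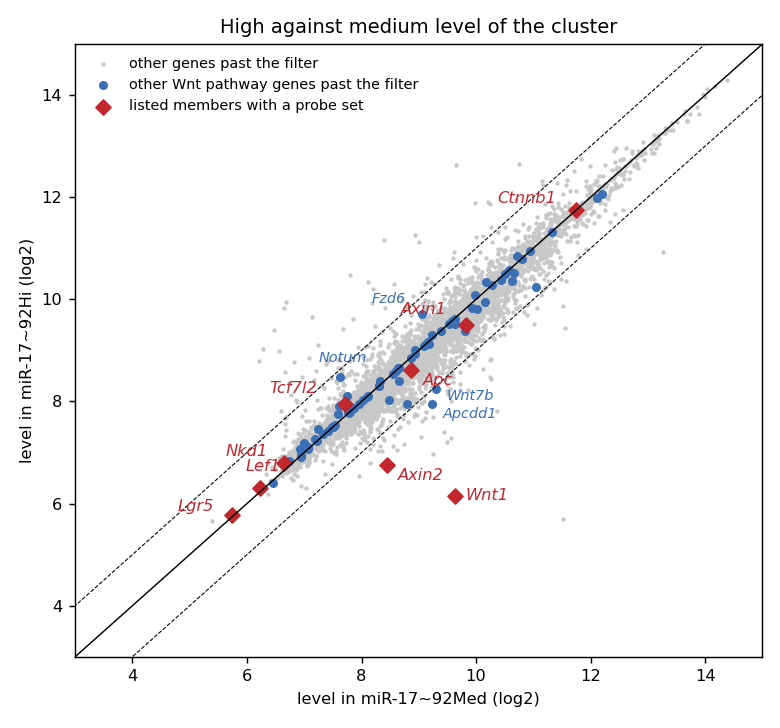
Level in Hi (y axis, log2) against level in Med (x axis, log2) for genes past the expression filter (grey), the other Wnt pathway genes among them (blue) and the 9 measured listed genes (red diamonds). The solid line marks equal levels and the dashed lines 2-fold. Wnt1 (6.14 in Hi and 9.63 in Med) and Axin2 (6.75 in Hi and 8.44 in Med) lie below the lower dashed line, and the other 7 listed genes lie between the dashed lines.

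The scaling of the columns moved every comparison with Ctrl. Centring on medians over all probe sets added 0.29 to each Hi minus Ctrl and 0.30 to each Med minus Ctrl difference, and centring on the genes past the filter changed them by -0.54 and -0.60, whereas Hi minus Med moved by -0.01 and 0.06. Relative to the genes past the filter, Ctnnb1 was thus 1.86 higher in Hi and 1.80 higher in Med than in Ctrl, Wnt1 1.65 higher in Med, and Lef1 2-fold or more lower in both. The signs of Wnt1, Axin1, Ctnnb1, Lef1 and Nkd1 against Ctrl were the same under each scaling tried, and those of Apc, of Axin2 in Med and of Tcf7l2 in Hi were not.

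**Figure D4:**
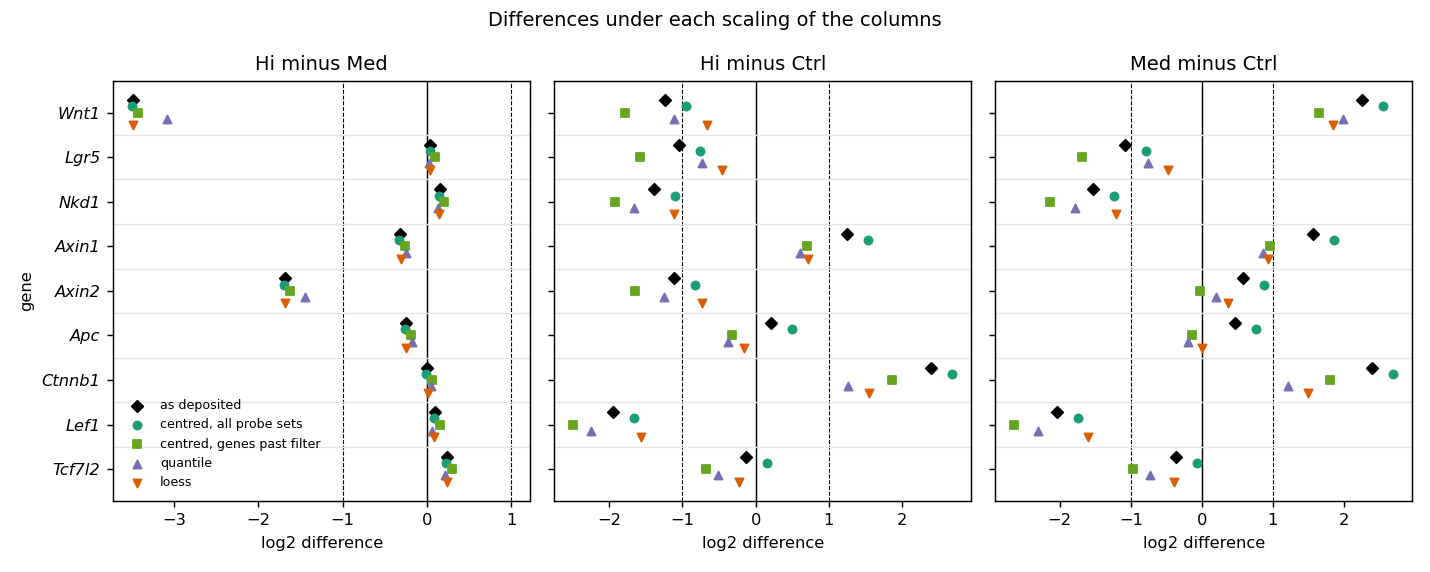
Log2 difference (x axis) of the 9 measured genes (y axis) for Hi minus Med, Hi minus Ctrl and Med minus Ctrl as deposited and under 4 other scalings of the columns, with dashed lines at 2-fold. Hi minus Med of Wnt1 stays between -3.50 and -3.09, while its Hi minus Ctrl runs from -1.78 to -0.66.

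The genes whose pattern over the 3 columns was most like that of Wnt1 were Antxr1, Ccnb2, Arhgdib, H2-T24 and Etl4. Likeness was the Euclidean distance between the 3 values, each less the gene's own mean, and it rests on 3 points. The distances were 1.004 for Antxr1, 1.12 for Ccnb2, 1.18 for Arhgdib, 1.25 for H2-T24 and 1.36 for Etl4. Axin2 came 7th of 9532 genes, Apcdd1 15th and Wnt7b 39th. Wnt1 and Axin2 were chosen for a low level in Hi against Med, and Apcdd1 and Wnt7b are the other pathway genes 2-fold lower there. Nothing is read from the ranks of these genes. Antxr1 was at 8.49 in Ctrl, at 9.49 in Med and at 7.21 in Hi. For Axin2 the closest were Sema7a (0.19), Ccnb2 (0.42), Antxr1 (0.43), Ddias (0.48) and Arhgap29 (0.59), followed by Apcdd1. Sema7a was at 8.05 in Ctrl, at 8.55 in Med and at 7.13 in Hi. Wnt1 itself came 4936th from Axin2, as its range over the columns was wider. For Lef1 the closest were Sox1 (0.022), Prr7 (0.031), Cyp27a1 (0.067), Maf (0.069) and Hoxb9 (0.070), each lower in both cluster columns. Sox1 was at 10.07 in Ctrl, at 8.05 in Med and at 8.14 in Hi.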

How the data were processed

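RNA of the 3 groups was hybridized to an Affymetrix array after random-primed amplification and biotin labelling, per the labels' protocols. Affymetrix Expression Console and GCRMA are named per the submitters' processing notes, with no role or version. The deposited values of 35556 probe sets were used as log2 levels. The sources used here do not give the base, which was taken from their range (2.13 to 14.8). The scanner files were not analysed here.

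Genes were named through GEO's platform annotation, updated by gene number to the RefSeq table of GRCm38.p6 (99.6% of 21789 probe sets of 1 gene matched). Probe sets of several genes (1621) or none (12146) named no gene. Probe sets of a gene were averaged (999 genes had over 1). The expression filter kept genes with a mean level of at least 7.13, the median of all genes. With 1 column a group, 2-fold differences were counted without any error or test. The number of arrays limits the precision. A gene not above the receptor gauge was set to it for an "at least" fold.

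The alternatives were columns centred on their medians, quantile normalization, loess (fraction 0.3), the probe set with the highest mean, a stricter filter (8.43), no filter and a 1.5-fold threshold. Centring on the genes past the filter, and counting only genes whose values differ, were added after the data were seen. The counting steps were tested on simulated data. The rule for named genes took the 10 listed genes, per role list up to 4 members 2-fold apart with the largest Hi minus Med and up to 4 with the largest Hi minus Ctrl difference, 5 paralogs, the 5 genes most alike to Wnt1, Axin2 and Lef1, and the genes next to Wnt1 and Axin2. Lrp5, Gsk3b, the Dishevelled genes and Notum were named after their values were seen. The 9 role lists (132 symbols, of which 130 were measured and 3 updated) and the 10 genes were chosen with earlier results of these data known. Python 3.11.15, pandas 2.3.3, numpy 2.4.6, statsmodels 0.14.6 and matplotlib 3.10.9 were used.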

Additional observations from a re-analysis of the deposited data

Results flagged for a closer look

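Wnt1, Axin2 and Apcdd1 lay on opposite sides of Ctrl in the 2 cluster columns, higher in Med and lower in Hi. For Wnt1 the differences were 2.25 for Med minus Ctrl and -1.24 for Hi minus Ctrl, and -3.49 for Hi minus Med. For Axin2 they were 0.57, -1.11 and -1.69, and for Apcdd1 1.06, -0.23 and -1.28. With 1 column a group the difference between the columns was not tested. The sign against Ctrl turned under a scaling for Axin2 in Med (-0.02 with columns centred on the genes past the filter) and for Apcdd1 in Hi (0.06 with columns centred over all probe sets), and for Wnt1 under none of those tried.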

How the results depend on the processing

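No paired analysis was possible because each group had 1 column. Of 96 differences of the 8 listed genes above the gauge in at least 1 column, recomputed under 4 other scalings, 86 kept their side of 2-fold, 10 fell under it and 0 of the 2-fold ones changed sign. The choice of probe set could not move them, since each gene had 1. Hi minus Med ran from -3.50 to -3.09 for Wnt1 and from -1.70 to -1.45 for Axin2. The listed genes past the filter that were 2-fold apart numbered 2 in Hi against Med and 0 with the stricter filter, which leaves out Wnt1 and Axin2. In Hi against Ctrl they numbered 5, against 3 with columns centred over all probe sets, 2 with loess and 2 with the stricter filter. In Med against Ctrl they numbered 4, against 2 with the stricter filter. Of the other pathway genes, 2 were 2-fold apart in Hi against Med, against 1 with quantile normalization, 1 with centring on the genes past the filter, 1 with the stricter filter and 6 at 1.5-fold. In Hi against Ctrl the count was 28 (17 higher and 11 lower), with 16 (16 and 0) under the stricter filter and 50 (17 and 33) without a filter. In Med against Ctrl it was 33 (21 and 12), with 17 (17 and 0) and 57 (21 and 36). The counts without a filter include genes under the gauge. The direction of these calls thus depended on the filter. So did that of all genes, in Hi against Ctrl 47.9% higher and 2.53% lower with the stricter filter and 17.5% and 15.4% without one. In Med against Ctrl all genes were at 49.2% and 2.53%, and 18.3% and 16.3%. The split of the other pathway genes in Hi against Ctrl was 12 and 10 with loess and 11 and 16 with centring on the genes past the filter. In Med against Ctrl it was 15 and 10, and 12 and 18. All genes past the filter split into 3335 higher and 837 lower in Hi against Ctrl as deposited, 4050 and 416 centred over all probe sets, 2512 and 1659 with quantile normalization, 2737 and 929 with loess and 2230 and 1637 centred on the genes past the filter. For Med against Ctrl the splits were 3475 and 867, 4192 and 469, 2552 and 1750, 2801 and 965, and 2282 and 1746, in the same order. The stricter filter counts fewer genes, and among the other pathway genes it removed every lower call against Ctrl. The cause of the change in calls, under this filter or the scalings, was not tested. Signal over background limits Lgr5 in every column and Wnt1 in Hi.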

Other observations

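Wnt1 was the only 1 of the 9969 genes past the filter (0.0100%) that was at least 2-fold higher in Med and at least 2-fold lower in Hi than in Ctrl on the deposited scale, and 3 genes ran the other way. This count was made after the values of Wnt1 were seen, and is given as a description. Wnt1 was picked for its Hi against Med difference and passed the filter through its Med level. Its Hi level of 6.14 lay under the gauge of 6.20, and the gauge was higher in Ctrl (6.87). Under the 2 scalings that bring its Hi minus Ctrl difference to -0.95 and -0.66 Wnt1 does not meet it. With no size asked, 44 genes (0.441%) were higher in Med and lower in Hi, and 119 (1.19%) had opposite signs against Ctrl.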
